A study of Gallus gallus with 60 samples.

Results

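The data are the expression profiles of chicken (Gallus gallus) utricles 120 h and 72 h into an experiment in which streptomycin was used to damage the sensory epithelium. The utricle is a vestibular organ of the inner ear, and streptomycin is an aminoglycoside antibiotic that kills its hair cells. The 6 biological samples described were the treated utricles labelled 120 h and those labelled 72 h, 3 at each time. They were chosen by treatment and time label, with earlier results of these data known. They came from 7 of the 60 libraries of the series, since sample 2 of 120 h has a repeat library, and they are 6 of 56 biological samples in all. Per the labels' protocols, dissected utricles received streptomycin for 24 h, recovered, and gave total RNA for RNA-seq. Control utricles of 120 h and 72 h, again 3 samples at each time from 7 libraries, serve as the same interval without the treated label; the labels give them the same protocol text and do not say what they received instead. Strain, age and sex of the chickens, the number of utricles in a sample and the moment from which the hours are counted are not stated in the labels. The tissue is the whole dissected utricle, so a transcript can come from hair cells, supporting cells or the tissue beneath them.

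Hair cells turn head movement into electrical signals through a bundle of stereocilia, and pass them on through ribbon synapses. Supporting cells surround them, and in birds they replace lost hair cells either by dividing, with one or both daughters becoming hair cells, or by changing fate directly without division. Cell division runs on a set of transcripts made in waves, first those for copying DNA and then those for separating chromosomes. Differentiation of a hair cell starts with the transcription factor ATOH1, continues with POU4F3 and GFI1, and ends with the proteins of the bundle and the synapse, while Notch signalling restrains neighbouring cells.

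Depth was 6292946 to 34904699 alignments in the 7 treated libraries, against 1486991 to 40331879 over the series. The libraries of 120 h were shallower on the whole, at 6292946 for sample 1, 12681825 and 20361381 for the 2 libraries of sample 2 and 25665360 for sample 3, against 16388305, 26111483 and 34904699 for samples 1, 2 and 3 of 72 h. Log values of the repeat libraries correlated at r = 0.986 over all tested rows, and those of separate treated samples of 120 h at 0.942 to 0.965 and of 72 h at 0.955 to 0.976. Tested markers of hair cells and of supporting cells were detected in all 6 samples, the lowest being TMC2 at 1.69 RPKM. No list of other cell types had a tested member at 0 in all 6, where 22 of all 13862 tested rows did. The filter on low values had already removed members of these lists. Of 13 muscle, 10 erythroid, 14 endothelial and 14 melanocyte genes present, 6, 5, 9 and 9 were tested. Detection of every marker is therefore not shown.

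Between 72 and 120 h, transcripts of cell division fell in the treated utricles and few transcripts rose. Of the 13862 rows tested, 64 passed an adjusted p of 0.05 by limma, or 0.462%, of which 54 fell (0.39%) and 10 rose (0.0721%). Among the 54 falls, 33 belonged to 3 lists of cell division genes, namely DNA replication, mitosis, and the cyclins with their partners and inhibitors. The lists were chosen with earlier results of these data known, so their counts are not independent of these data. Of the 64 called changes 58 were at least 1 on the log2 scale (RPKM with 0.5 added, which understates the fold of low transcripts). The threshold itself favours large changes, as the median SE over all rows was 0.30. In each of the 64 rows the 3 samples of 120 h lay wholly to one side of the 3 of 72 h, as they did in 9.23% of all rows on the lower side and 5.01% on the higher side. The calls were made from the same values, so this is no separate support for them.

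These calls rest on a spread estimated over all 56 samples, and on single samples. With the 6 samples alone limma called 0 rows, although 1157 had an unadjusted p under 0.05, against 867 in the fit of all samples. Leaving out sample 1, 2 or 3 of 120 h gave 4, 104 and 3 calls, and leaving out sample 1, 2 or 3 of 72 h gave 1, 27 and 40. CTNNB1 was the one row called in all 6 of these fits. None of the 64 rows turned direction in any of the 18 alternative settings in which it was tested. DUOX2 was tested in 17 of the 18. With samples left out or weighted the direction was fixed in advance, since the samples of the 2 times did not overlap in any of the 64 rows. A change of filter, trend or block, or a fit of the 6 samples alone, left the estimates as they were. Another pseudocount hardly alters the order of the samples. Only the other scalings and the omission of the repeat libraries could thus have turned a direction, and they used the same samples.

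The falls in the DNA replication list covered the supply of DNA building blocks, the helicase and the sliding clamp. Of its 45 tested members 9 fell and 0 rose, where 0.39% of all rows fell and 0.0721% rose. The median change of the list was −0.63 on the log2 scale, against −0.05 over all rows tested. RRM2, the small subunit of ribonucleotide reductase, which makes deoxyribonucleotides, had 18.6, 28.7 and 9.83 RPKM at 120 h, against 84.2, 67.4 and 64.0 RPKM at 72 h. Its highest sample of 120 h lay below its lowest sample of 72 h, and it was 4.003-fold lower at 120 h (log2 change −2.001 ± 0.41, SE; limma adjusted p = 0.0112). TK1, the thymidine kinase that salvages thymidine, had 4.25, 6.604 and 3.63 RPKM at 120 h, against 20.8, 15.9 and 14.0 RPKM at 72 h (−1.73 ± 0.31; adjusted p = 0.0053).

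The MCM proteins form the ring that opens the double helix ahead of the replication fork. MCM5 had 9.77, 12.4 and 5.66 RPKM at 120 h, against 25.0, 29.95 and 24.3 RPKM at 72 h (−1.52 ± 0.37; adjusted p = 0.0394). MCM2 had 7.53, 8.74 and 4.81 RPKM at 120 h, against 18.1, 16.4 and 13.3 RPKM at 72 h (−1.15 ± 0.22; adjusted p = 0.00642). CDC45, which joins the MCM ring to make the active helicase, was lower still in level, at 1.16, 2.42 and 1.12 RPKM at 120 h, against 5.33, 4.34 and 5.18 RPKM at 72 h (−1.45 ± 0.26; adjusted p = 0.00526). For all 3 helicase genes the samples of the 2 times did not overlap. PCNA, the clamp that holds DNA polymerase on its template, had 27.9, 52.8 and 34.6 RPKM at 120 h, against 71.7, 76.1 and 68.3 RPKM at 72 h (−0.95 ± 0.19; adjusted p = 0.0101). The PCNA samples also did not overlap, with sample 2 the highest of 120 h. Other members that fell were CDC7, a kinase that starts replication, MCM3 and MCM10.

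Mitosis was the list with the largest median change among the 28 lists examined. Of its 56 tested members 23 fell and 0 rose, where 0.39% of all rows fell. All 56 had a negative change, as did 7900 of the 13862 rows, and the samples of 120 h lay wholly below those of 72 h in 52, as they did in 9.23% of all rows. The median change was −1.19, against −0.05 over all rows. Summed over the list, levels ran from 227 to 364 RPKM in the samples of 120 h, against 572 to 820 RPKM in those of 72 h.

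Among the genes that drive entry into mitosis, CDK1, the kinase that triggers it, had 13.4, 19.95 and 9.40 RPKM at 120 h, against 53.3, 30.5 and 31.7 RPKM at 72 h (−1.42 ± 0.31; adjusted p = 0.0216). Its partner cyclin CCNB2 had 15.3, 20.1 and 10.1 RPKM at 120 h, against 46.5, 47.5 and 32.4 RPKM at 72 h (−1.47 ± 0.29; adjusted p = 0.00895). PLK1, a kinase needed for spindle assembly, had 3.38, 3.88 and 2.61 RPKM at 120 h, against 14.3, 12.7 and 8.67 RPKM at 72 h (−1.70 ± 0.37; adjusted p = 0.0189). In these 3 genes sample 3 was the lowest of 120 h, and the 2 times did not overlap.

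TOP2A, the topoisomerase that untangles chromosomes, had 7.82, 11.9 and 6.80 RPKM at 120 h, against 35.3, 25.6 and 22.6 RPKM at 72 h, a 3.06-fold fall (−1.61 ± 0.29; adjusted p = 0.00526). BUB1B, a checkpoint kinase that delays chromosome separation, had 1.72, 4.70 and 2.69 RPKM at 120 h, against 14.3, 7.96 and 8.68 RPKM at 72 h (−1.66 ± 0.33; adjusted p = 0.0101). CDCA3, which helps degrade inhibitors of mitotic entry, had 7.60, 8.53 and 4.10 RPKM at 120 h, against 25.8, 30.9 and 20.7 RPKM at 72 h (−1.90 ± 0.47; adjusted p = 0.0488). The samples did not overlap in any of the 3, and CDCA3 stood just inside the threshold. Further members that fell include the spindle checkpoint and kinetochore genes BUB1, NDC80, NUF2, SPC25, CENPH and CENPI, the spindle genes AURKA, TPX2, KIF2C, KIF4A and NUSAP1, and ANLN, which works in the cleavage furrow.

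**Figure D1:**
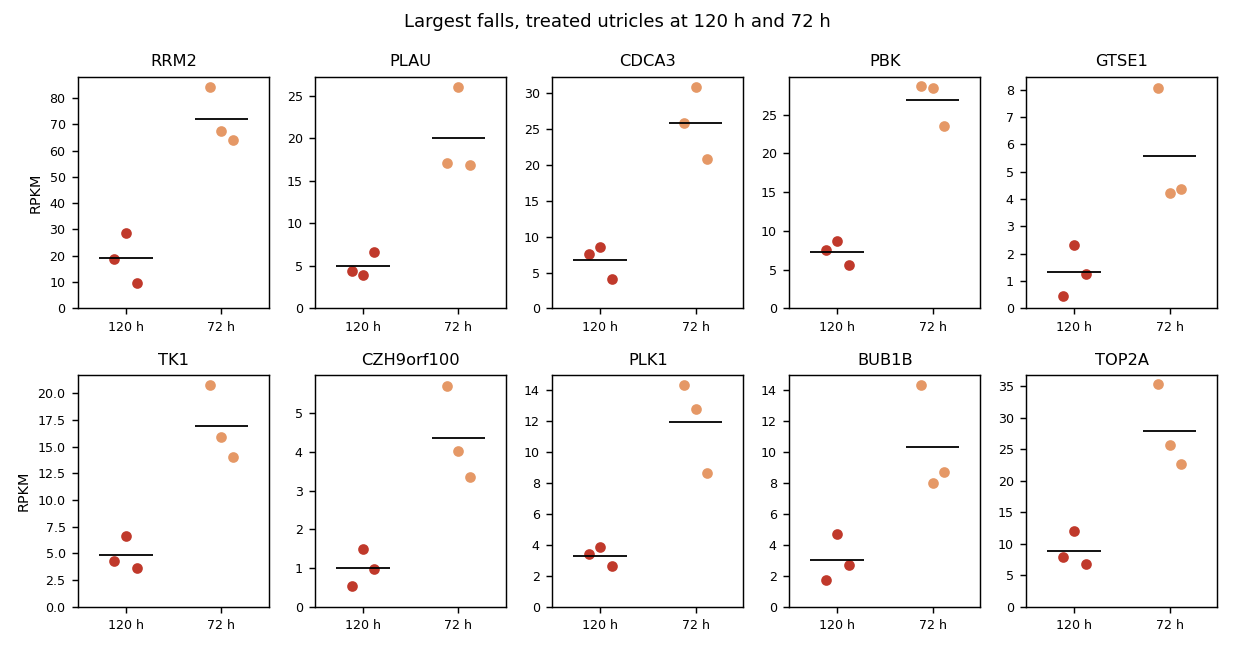
RPKM per sample of the 10 largest named falls in treated utricles, with 120 h on the left and 72 h on the right of each panel and bars at the mean of 3 samples. In each panel all 3 samples of 120 h lie below all 3 of 72 h, as for RRM2 with 9.83 to 28.7 RPKM against 64.0 to 84.2 RPKM.

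The list counts depend on the samples as the overall count does. Leaving out sample 1 or 3 of 120 h, or sample 1 of 72 h, left 0 mitosis genes called, while leaving out sample 2 of 120 h gave 31 and leaving out sample 2 or 3 of 72 h gave 10 and 16. The same fits for the 120 h samples 1, 2 and 3 called 1, 11 and 0 DNA replication genes, and for the 72 h samples 0, 5 and 7; over all settings the median change ran from −1.43 to −0.97 for mitosis and from −0.78 to −0.45 for DNA replication.

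Of the 23 tested cyclins, cyclin-dependent kinases, inhibitors and E2F factors, 1 fell and 0 rose (median −0.34), where 0.39% of all rows fell. That member was CCNA2, the cyclin of S phase and early mitosis, with 4.25, 5.13 and 2.89 RPKM at 120 h, against 10.7, 10.3 and 7.34 RPKM at 72 h (−1.13 ± 0.24; adjusted p = 0.0147). CCND1, the cyclin that links growth signals to cell cycle entry, had 25.2, 20.2 and 24.5 RPKM at 120 h, against 25.4, 45.8 and 37.7 RPKM at 72 h, and did not pass (−0.60 ± 0.22; adjusted p = 0.415). CDKN1B, the inhibitor p27 that holds inner ear cells out of the cycle, was at 138, 155 and 143 RPKM at 120 h, against 119, 198 and 142 RPKM at 72 h, with overlapping samples and a change that turned positive under 2 other scalings (−0.04 ± 0.18, 95% interval −0.40 to 0.31; adjusted p = 1).

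Falls were also found outside the division lists, in 21 rows. Several of these genes also work in division: PBK, a mitotic kinase, had 7.57, 8.66 and 5.61 RPKM at 120 h, against 28.7, 28.4 and 23.5 RPKM at 72 h (−1.83 ± 0.33; adjusted p = 0.00526). GTSE1, a microtubule protein of dividing cells, had 0.455, 2.34 and 1.26 RPKM at 120 h, against 8.08, 4.22 and 4.39 RPKM at 72 h (−1.79 ± 0.42; adjusted p = 0.0347). CZH9orf100, the chicken counterpart of a human open reading frame, averaged 1.003 ± 0.471 RPKM at 120 h and 4.36 ± 1.22 RPKM at 72 h (SD, n = 3 each; −1.71 ± 0.30; limma adjusted p = 0.00526). Of the others, SLBP, which binds histone messages, FANCD2, a DNA repair protein, and LMNB1, a protein of the nuclear lamina, were picked out after their values were seen, with changes of −1.36, −0.995 and −1.22.

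PLAU, the urokinase that activates plasminogen at the cell surface, had 4.36, 3.89 and 6.66 RPKM at 120 h, against 17.1, 26.1 and 16.9 RPKM at 72 h. It was 3.77-fold lower at 120 h with no overlap (−1.91 ± 0.37; adjusted p = 0.00891). CTNNB1, which encodes beta-catenin, the protein of cell junctions and of Wnt signalling, had 213, 239 and 225 RPKM at 120 h, against 418, 589 and 456 RPKM at 72 h. This was a 2.14-fold fall with a wide gap between the times (−1.10 ± 0.17; adjusted p = 0.00108). In the control utricles CTNNB1 averaged 228 ± 16.7 RPKM at 120 h and 295 ± 78.5 RPKM at 72 h (SD, n = 3 each), so that the treated mean of 226 ± 12.99 RPKM at 120 h lay within the control spread of that time. CTNNB1 was the 1 member of 39 tested in the Wnt list that fell, where 0.39% of all rows fell. None rose, and the median change of the list was −0.04.

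The 10 rises included 2 genes of the synthesis of serine and one-carbon units, both from the list of endoplasmic reticulum and integrated stress genes. PSPH, which makes serine in the last step of its synthesis, had 29.1, 18.4 and 25.4 RPKM at 120 h, against 6.52, 6.43 and 4.96 RPKM at 72 h, a 3.796-fold rise (1.92 ± 0.45; adjusted p = 0.0319). MTHFD2, a mitochondrial enzyme of folate metabolism, had 108, 73.3 and 103 RPKM at 120 h, against 21.6, 53.4 and 45.6 RPKM at 72 h (1.30 ± 0.30; adjusted p = 0.0312). Samples of the 2 times did not overlap in either gene. Among the 30 tested members of that list these 2 rose and 0 fell, where 0.0721% of all rows rose and 0.39% fell. In 11 the samples of 120 h lay wholly above those of 72 h (5.01% of all rows). The median change was 0.19, against −0.05 over all rows, with 21 members above 0. In control utricles the median change of this list was 0.22, against −0.06 over all rows, with 20 members above 0.

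Among the members that did not pass were CHAC1 and ASNS, singled out after their values were seen. CHAC1, an enzyme that breaks down glutathione, had 339, 116 and 228 RPKM at 120 h, against 16.7, 26.02 and 20.04 RPKM at 72 h (3.31 ± 0.91; adjusted p = 0.0993). ASNS, which makes asparagine, had 75.1, 53.2 and 90.5 RPKM at 120 h, against 21.2, 26.5 and 19.3 RPKM at 72 h (1.66 ± 0.45; adjusted p = 0.0931). Their samples did not overlap between the times. In control utricles PSPH averaged 35.05 ± 11.9 RPKM at 120 h and 20.01 ± 9.49 RPKM at 72 h, and MTHFD2 163 ± 9.01 RPKM at 120 h and 94.1 ± 14.7 RPKM at 72 h (SD, n = 3 each).

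Among the called rows the largest rise was that of SLC16A5, a transporter of the monocarboxylate family. It had 5.28, 5.88 and 22.2 RPKM at 120 h, against 0.883, 1.25 and 0.988 RPKM at 72 h (2.62 ± 0.52; adjusted p = 0.0101). Sample 3 lay well above samples 1 and 2, and all 3 lay above every sample of 72 h. Control utricles had 14.9 ± 2.87 RPKM at 120 h and 11.1 ± 3.75 RPKM at 72 h (SD, n = 3 each), so the treated mean of 72 h was the lowest of these 4 group means.

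GNAZ, a G protein alpha subunit, had 7.16, 3.95 and 6.48 RPKM at 120 h, against 1.39, 1.26 and 0.820 RPKM at 72 h (1.92 ± 0.42; adjusted p = 0.0211). CREB3L1, a transcription factor anchored in the endoplasmic reticulum, had 57.4, 19.4 and 31.4 RPKM at 120 h, against 10.1, 13.5 and 6.05 RPKM at 72 h (1.75 ± 0.39; adjusted p = 0.0268). Septin 5, a cytoskeletal GTPase, had 28.2, 15.3 and 27.4 RPKM at 120 h, against 6.12, 8.002 and 5.36 RPKM at 72 h (1.75 ± 0.40; adjusted p = 0.0285). In these 3 genes sample 2 was the lowest of 120 h, yet above all samples of 72 h. DUOX2, an oxidase that produces hydrogen peroxide, was below 1 RPKM in every sample of 72 h, with 1.57, 0.756 and 1.51 RPKM at 120 h, against 0.151, 0.164 and 0.219 RPKM at 72 h (1.36 ± 0.27; adjusted p = 0.0101). WIPI1, a protein of autophagosome formation, had the smallest called change, with 123, 105 and 117 RPKM at 120 h, against 75.1, 77.7 and 73.4 RPKM at 72 h (0.60 ± 0.14; adjusted p = 0.0348).

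**Figure D2:**
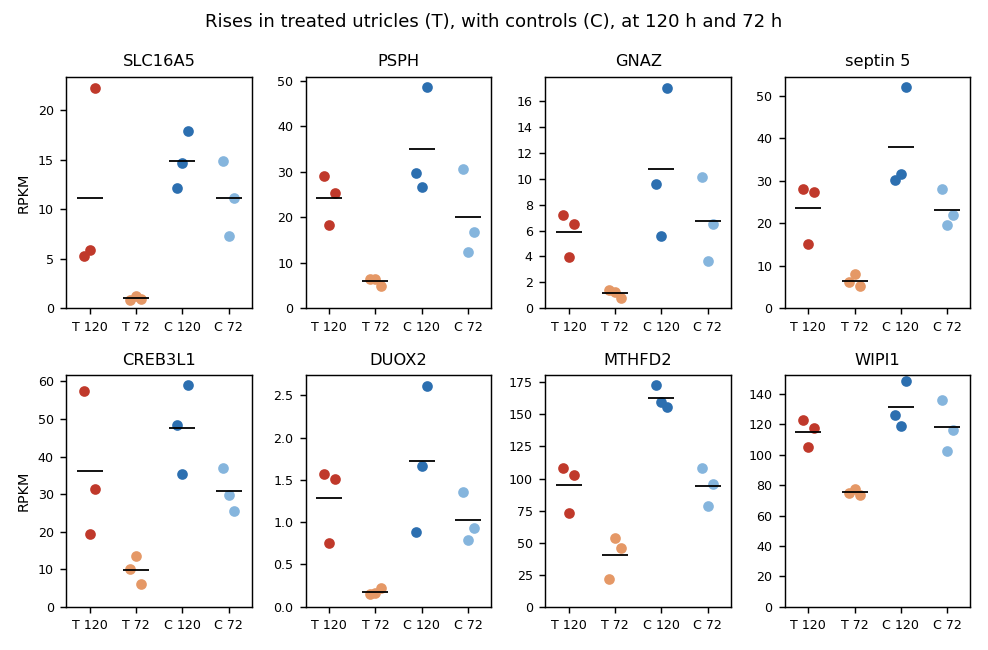
RPKM per sample of the 8 named rises, with treated utricles (T) at 120 h and 72 h and control utricles (C) at 120 h and 72 h from left to right, and bars at the mean of 3 samples. The treated mean of 72 h is the lowest in each panel, as for PSPH with samples at 4.96 to 6.52 RPKM, and the control mean of 120 h is above the treated mean of 120 h.

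Hair cell genes did not pass in either direction. Of 22 transcription factors, 46 genes of the hair bundle and mechanotransduction and 36 genes of the synapse, channels and calcium buffers, 0 were called. At an unadjusted limma p under 0.05 were 1, 3 and 2 of them (4.55%, 6.52% and 5.56%), near the 6.25% of all rows. Of these, 0, 1 and 2 were higher at 120 h, and 1, 2 and 0 lower. The median changes of the lists were 0.08, 0.13 and 0.32, with 13, 29 and 28 members above 0. These were 59.1%, 63.0% and 77.8% of the members, against 42.9% of all rows. Samples of 120 h lay wholly above those of 72 h in 4, 8 and 6 members (5.01% of all rows). They lay wholly below in 3, 6 and 0 members (9.23% of all rows). OTOF, a calcium sensor of the ribbon synapse, had 75.02, 62.4 and 75.6 RPKM at 120 h, against 53.9, 43.7 and 49.5 RPKM at 72 h, without overlap (0.53 ± 0.27, 95% interval −0.01 to 1.07; adjusted p = 0.806). SLC17A8, the transporter that loads glutamate into synaptic vesicles, had 7.04, 8.84 and 7.41 RPKM at 120 h, against 6.04, 4.05 and 5.33 RPKM at 72 h, again without overlap (0.56 ± 0.32, interval −0.08 to 1.1999; adjusted p = 0.887). TMC2, a subunit of the mechanotransduction channel, had 3.26, 3.92 and 5.15 RPKM at 120 h, against 3.13, 1.69 and 2.48 RPKM at 72 h (0.66 ± 0.28; adjusted p = 0.592).

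The bundle motor MYO7A had 8.51, 8.93 and 10.9 RPKM at 120 h, against 10.3, 5.88 and 8.70 RPKM at 72 h (0.21 ± 0.30; adjusted p = 1). Among calcium-binding proteins, OCM2 and CALB2 had changes of 0.42 ± 0.26 and 0.09 ± 0.39 with overlapping samples (limma p of 0.937 and 1 after adjustment). GFI1, which keeps hair cells from taking up other fates, had 9.78, 9.27 and 12.3 RPKM at 120 h, against 8.27, 6.49 and 8.04 RPKM at 72 h (0.43 ± 0.26; adjusted p = 0.937). ATOH1 had 123, 79.1 and 45.0 RPKM at 120 h, against 83.3, 108 and 72.2 RPKM at 72 h, so its samples of 120 h spread over a wider range than those of 72 h (−0.18 ± 0.63; adjusted p = 1). POU4F3 had a change of 0.32 ± 0.35 and HES6, a HES family factor of differentiating cells, one of −0.75 ± 0.55 (both adjusted p = 1).

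**Figure D3:**
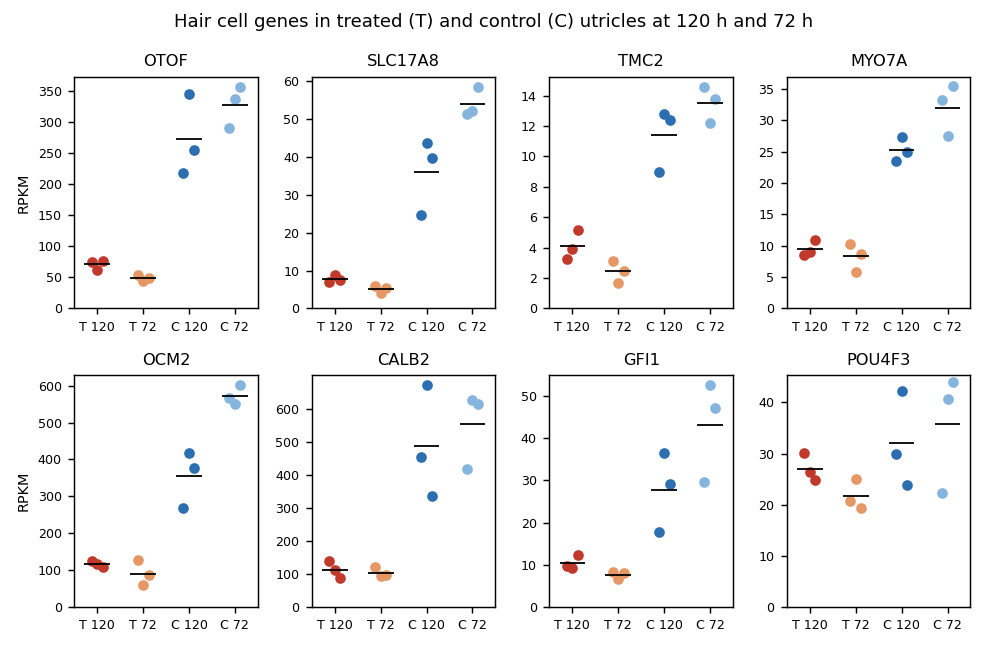
RPKM per sample of 8 hair cell genes in treated utricles (T) at 120 h and 72 h and control utricles (C) at 120 h and 72 h, left to right, with bars at the mean of 3 samples. For OTOF the treated samples run from 43.7 to 75.6 RPKM, below all control samples. Of the hair cell markers ATOH1 is not shown, with a treated mean of 82.5 RPKM at 120 h and 87.7 RPKM at 72 h.

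Supporting cell and Notch genes had 0 calls of 30 and 34 tested, with median changes of −0.13 and −0.01. Of them 4 and 1 had an unadjusted limma p under 0.05 (13.3% and 2.94%, against 6.25% of all rows). SOX2, a factor of supporting and progenitor cells, had 426, 291 and 181 RPKM at 120 h, against 225, 201 and 192 RPKM at 72 h, with overlap (0.45 ± 0.41; adjusted p = 1). TECTB, a protein of the extracellular membrane over the sensory cells, had 46.9, 76.7 and 70.9 RPKM at 120 h, against 207, 108 and 195 RPKM at 72 h, with no overlap (−1.36 ± 0.37; adjusted p = 0.104). Control utricles had 27.6 ± 8.62 RPKM of TECTB at 120 h and 78.1 ± 10.4 RPKM at 72 h (SD, n = 3 each). TECTA, GJB6 and OTOL1, of the same membrane, of gap junctions and of the otoconia, had changes of −0.28 ± 0.51, −0.53 ± 0.46 and −0.32 ± 0.71 (adjusted p = 1 for each).

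HES5, a target of Notch, had 182, 183 and 48.6 RPKM at 120 h, against 219, 12.6 and 29.3 RPKM at 72 h, and the 2 times overlapped widely (1.42 ± 1.19; adjusted p = 1). The ligands DLL1 and JAG1 had changes of −0.01 ± 0.47 and −0.04 ± 0.20, which turned positive under 2 other scalings. LFNG, which modifies Notch receptors, had 72.4, 129 and 102 RPKM at 120 h, against 116, 176 and 180 RPKM at 72 h (−0.65 ± 0.31; adjusted p = 0.753). EDNRB2, an endothelin receptor of birds, had a change of −0.29 ± 0.41 (adjusted p = 1). In bulk tissue, fewer cells of a type and less RNA per cell cannot be told apart, for these genes as for those of division.

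The control utricles over the same interval had 0 called rows of 13862 (0%) by limma, with 830 at an unadjusted p under 0.05. Of the 64 rows called in treated utricles, 63 had a control change of the same sign, namely 53 of the 54 falls and all 10 rises. Over all 13862 rows the control change was negative in 7987 and positive in 5853. The share of all rows with the same sign in both was not computed. Treated and control samples of the same number and time deviated together (r = 0.199 to 0.710), so the 2 signs are not independent. The median control change of the mitosis list was −0.68 and of the DNA replication list −0.25, at lower levels: the summed mitosis level was 125 to 159 RPKM in controls of 120 h and 199 to 232 RPKM in those of 72 h. The difference between the treated and the control change was called in 0 rows (0%), with 281 at an unadjusted p under 0.05. With treated and control samples of the same number and time paired, it was again called in 0 rows, with 844 at an unadjusted p under 0.05. With 1 sample left out that number ran from 128, without control sample 1 of 120 h, to 700, without control sample 3 of 120 h, and 0 rows were called each time. No change is therefore shown to be particular to treated utricles. The shallowest library here, that of control sample 1 of 120 h, had 2786632 alignments, and the part of depth in these counts was not tested.

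The differences given next were picked out after their values were seen, and each had a limma adjusted p of 1. For CTNNB1 the treated change minus the control change was −0.76 ± 0.23 (SE; 95% interval −1.23 to −0.28). For the replication genes PCNA and MCM2 it was −0.82 ± 0.26 (−1.36 to −0.29) and −0.91 ± 0.30 (−1.52 to −0.29). For the hair cell genes OCM2, GFI1 and SLC17A8 it was 1.13 ± 0.36 (0.40 to 1.87), 1.08 ± 0.37 (0.32 to 1.83) and 1.18 ± 0.45 (0.27 to 2.08). In each of these 3 hair cell genes the treated change was above 0 and the control change below it, at −0.71 for OCM2, −0.65 for GFI1 and −0.62 for SLC17A8. Other hair cell genes went both ways. The difference was below 0 in 7 of 22 transcription factors, 10 of 46 bundle and 8 of 36 synapse genes, against 6915 of all 13862 rows. ATOH1 averaged 82.5 ± 39.3 RPKM at 120 h and 87.7 ± 18.1 RPKM at 72 h in treated utricles (SD, n = 3 each). In controls it averaged 62.0 ± 32.5 RPKM at 120 h and 43.0 ± 12.5 RPKM at 72 h.

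The change ran through 96 h without a step that passed by itself. Treated utricles of 96 h against 72 h and of 120 h against 96 h had 0 called rows each (0%), with 384 and 366 at an unadjusted p under 0.05, and the 2 steps share the samples of 96 h. The median change of the mitosis list was −0.70 over the first step and −0.52 over the second. In all 64 called rows the mean of 96 h lay between those of the ends, as it did in 39.6% of all rows. The called rows were chosen for a gap between the ends, which by itself makes a mean between them more likely. Averaged over the mitosis list, log2 levels were 3.19 at 72 h, 2.52 at 96 h, 2.01 at 120 h and 1.06 at 168 h in treated utricles, and 1.66, 1.13, 0.9998 and 0.73 in controls.

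Before the interval TOP2A did not move in one direction. Its treated mean was 1.83 ± 0.026 RPKM at 0 h (SD, n = 2), 11.8 ± 4.44 at 24 h (n = 4), 37.4 ± 4.75 at 48 h, 24.4 ± 2.64 at 54 h, 23.8 ± 6.05 at 60 h and 20.8 ± 0.118 at 66 h (n = 2 each), so that 54, 60 and 66 h lay below 72 h. From there it was 27.8 ± 6.62 RPKM at 72 h, 13.7 ± 3.43 at 96 h and 8.85 ± 2.72 at 120 h (n = 3 each), 3.20 ± 0.52 at 144 h (n = 2) and 3.41 ± 0.405 at 168 h (n = 3). Control means of TOP2A were 6.51 ± 0.60 RPKM at 72 h and 3.57 ± 1.24 RPKM at 120 h. The treated mean of 120 h thus lay between the treated mean of 72 h and the control mean of 120 h. All 54 falls had a mean over 144 and 168 h below that of 72 h, and all 10 rises one above it. These rows were called from the same samples of 72 h, and the share over all rows was not computed.

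OTOF likewise did not move in one direction in treated utricles. Its mean was 54.5 ± 4.60 RPKM at 0 h (SD, n = 2), 28.01 ± 2.31 at 24 h (n = 4), 35.5 ± 14.4 at 48 h, 37.9 ± 3.59 at 54 h, 37.9 ± 13.1 at 60 h and 42.9 ± 2.24 at 66 h (n = 2 each). It was 49.0 ± 5.13 RPKM at 72 h, 54.3 ± 6.84 at 96 h and 71.0 ± 7.44 at 120 h (n = 3 each), 62.2 ± 8.55 at 144 h (n = 2) and 97.0 ± 14.97 at 168 h (n = 3). The mean of 0 h was thus above that of 72 h, and that of 144 h below that of 120 h. Control means ran from 197 ± 15.8 RPKM at 54 h to 332 ± 49.9 RPKM at 48 h (n = 2 each).

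**Figure D4:**
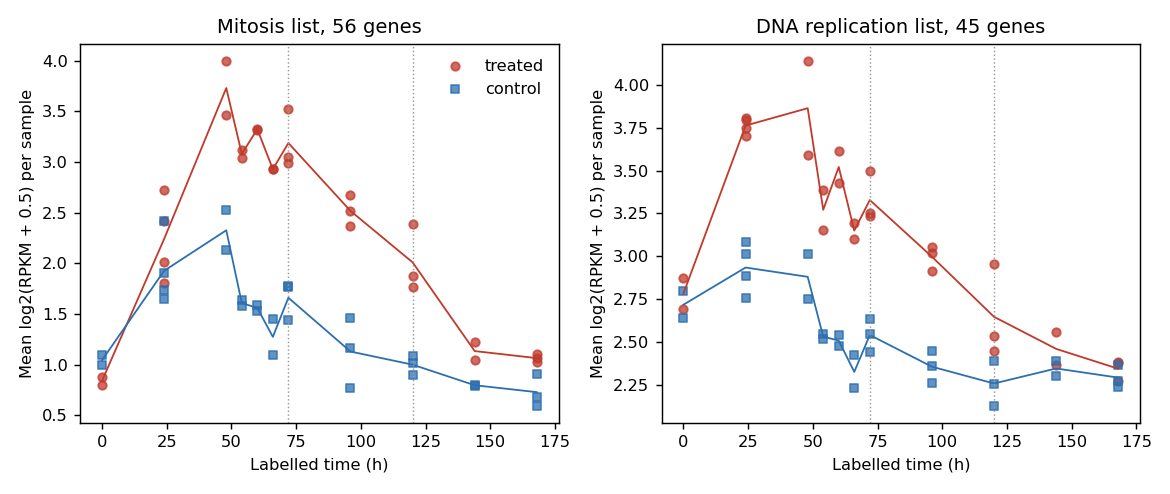
Mean log2(RPKM + 0.5) per sample over the 56 mitosis and 45 DNA replication genes against labelled time in h, with circles for treated and squares for control samples, lines through the group means and dotted lines at 72 and 120 h. The treated mitosis mean is 3.19 at 72 h, 2.01 at 120 h and 1.06 at 168 h. At these times it is above the control mean, which is 0.73 at 168 h.

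Gene lists of other kinds had 0 calls in treated utricles. Markers of other cell types gave medians of 0.16 for stroma and extracellular matrix (32 tested), 0.07 for macrophages and leukocytes (25), 0.09 for endothelium (9), 0.78 for erythroid cells (5), 0.03 for neurons (10), −0.06 for Schwann cells and glia (7), 0.14 for melanocytes (9) and −0.16 for muscle (6). At an unadjusted limma p under 0.05 were 2 endothelial (22.2%), 2 melanocyte (22.2%), 1 erythroid (20%), 1 neuron (10%) and 2 macrophage genes (8%), all higher at 120 h. For stroma it was 1 gene, lower (3.1%), and for glia and muscle 0, against 6.25% of all rows. The summed levels of the lists overlapped between the times except for erythroid markers, at 1.80 to 9.52 RPKM at 120 h, against 1.27 to 1.502 RPKM at 72 h. Stroma ran from 3153 to 5255 RPKM at 120 h, against 3056 to 5829 RPKM at 72 h. The part of the erythroid markers in the results was not tested.

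The remaining lists were close to the median of all rows or slightly apart from it. Medians were −0.08 for cilium and axoneme (59 tested), −0.25 for cholesterol synthesis (18), −0.15 for interferon response (25), 0.09 for immediate early genes (19), −0.12 for Hippo and YAP targets (23), −0.05 for the FGF pathway (26), −0.03 for the BMP and TGF-beta pathway (38), 0.02 for ribosomal proteins (54) and −0.14 for cell death and p53 targets (29), with 0 to 3 members of each at an unadjusted p under 0.05. The nuclear genes of the respiratory chain had a median of −0.32, with all 48 tested members below 0. Of them 9 (18.75%) had an unadjusted limma p under 0.05, against 6.25% of all rows.

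**Figure D5:**
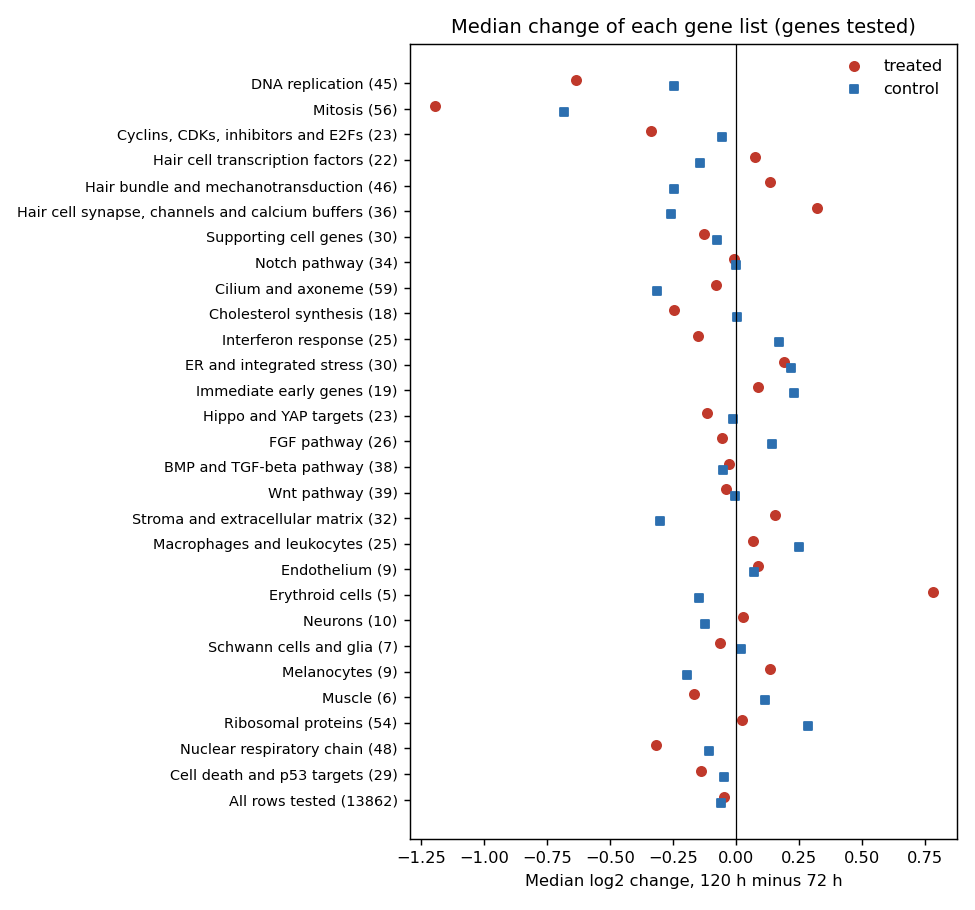
Median log2 change from 72 to 120 h of each of the 28 gene lists, with circles for treated and squares for control utricles and the number of genes tested in parentheses. The mitosis median is the lowest in both, at −1.19 in treated and −0.68 in control utricles.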

How the data were processed

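RNA-seq of utricles gave 60 libraries, deposited as 1 table of 17684 rows with 1 column per library. The deposited table names no unit. Reading the authors' deposited values as RPKM (reads scaled to transcript length and to the library's alignments) is an inference: a value times the alignments of its library, which the table's header gives, should then fall on whole steps of 1 read. In 3268 low rows, 37.6% had over 90% of values within 0.05 of a whole step, against 10.8% for the values as deposited. In 2016 of these with 1 transcript and a largest value at most 500 times the smallest, a restriction chosen after seeing the first result, it was 41.7%, against 0% (2022 rows), so most rows did not meet the criterion in either check. TopHat 1.4.0 and Partek 6.6 appear in the submitters' processing notes with no role stated. The sources used here do not give the genome build or the read counting; no coordinates are therefore given, and close gene copies, such as the tubulins, are uncertain. Another 2 columns match none of the samples and were left aside.

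Rows of at least 1 RPKM in at least 2 libraries were tested (13862). A label with a decimal in its replicate number was taken to mean a repeat library, and repeats were averaged on the log2 scale. Values were log2(RPKM + 0.5), fitted with limma 3.58.1 (R 4.3.3, statmod 1.5.0; empirical Bayes with intensity trend) over 56 samples in 22 group means, without a block, leaving 34 residual degrees of freedom. P-values were adjusted by Benjamini-Hochberg over all rows and called under 0.05. On simulated data with each gene's residual spread, the fit of all samples called 35 of 100 changes of 1 on the log2 scale. It called 90 of 100 changes of 2, and made 11 false calls. With the 6 samples alone 3 of 100 changes of 1 and 74 of 100 changes of 2 were called, with 6 false calls. A row that was not called is therefore not shown to be unchanged. The simulated noise was independent between samples, unlike that of treated and control samples of the same number, so these rates may not carry over. Since the labels do not say what makes up a sample, the p-values reflect only how far these samples vary, which may be technical.

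Named genes were up to 10 rises and 10 falls with a symbol, called and without overlap, ordered by log2 change, plus a set chosen by name, the hair and supporting cell markers, and up to 4 called genes per list; 8 rises met the rule, and SOX21 was not among the tested rows. The samples described and the 28 gene lists were chosen with earlier results of these data known. Alternatives changed the pseudocount, the filter, the scaling, the samples, the trend, the weights and the block. Samples of the same number in treated and control utricles of one time deviated together (r = 0.199 to 0.710 at 120 h and 72 h), so a pairing was also fitted for the difference between the changes; it comes from the shared number and this check.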

Additional observations from a re-analysis of the deposited data

Results flagged for a closer look

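SLC17A8, the glutamate transporter of hair cell synapses, stood out because all 3 treated samples of 120 h were above all 3 of 72 h while all 3 control samples of 120 h were below all 3 of 72 h. The treated change minus the control change was 1.18 ± 0.45 on the log2 scale (95% interval 0.27 to 2.08; limma adjusted p = 1). Control utricles had 24.7, 43.6 and 39.7 RPKM at 120 h, against 51.4, 52.2 and 58.4 RPKM at 72 h. The pattern was looked for among the named genes only, and it fixes the sign of this difference in advance. The interval is therefore no separate support, and the share of all rows with the pattern was not computed.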

How the results depend on the processing

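The count of 64 in treated utricles was 25 (4 higher, 21 lower) with a pseudocount of 0.1, 0 with the 6 samples alone, 0 with the replicate number as a block (923 at an unadjusted p under 0.05), 546 (180 higher, 366 lower, or 33.0% higher against 15.6%) with sample quality weights, whose estimation stopped before converging, and 1 without both sample 1 of 120 h and sample 1 of 72 h, a setting chosen after seeing the data. It ran from 1 to 104 with 1 sample left out, and from 60 to 92 in the other settings. Quality weights also gave 133 calls from 72 to 96 h and 2 from 96 to 120 h. The weight of treated sample 3 of 72 h was 9.34, against 0.769 and 0.924 for samples 1 and 2. The treated level of 72 h in this setting thus rested mostly on 1 sample. The controls had 0 to 3 calls with 1 sample left out (1 without sample 1 of 120 h and 3 without sample 3), and the difference between the changes had 0 in every setting, the pairing of treated and control samples included. Samples of the same number at the 2 times had r = −0.0725, −0.247 and 0.324, and sample 1 of 120 h correlated best with sample 2 of 72 h. The block was fitted to the 6 samples alone, which had 0 calls without it too, so no call was lost to the block. Its 923 rows at an unadjusted limma p under 0.05 compare with 1157 in those samples without the block. Over the named genes and settings, 179 values lost the call with the same direction, and 3 gained it (TMC2, CCND1 and TECTB, under quality weights). Signs turned for genes that were not called: trimmed mean scaling gave 0.0368 for DLL1, 0.00623 for JAG1 and 0.00443 for CDKN1B, quantile normalization 0.0788, 0.0394 and 0.0497 for the same genes, quality weights 0.0219 for CDKN1B, and the omission of both samples 1 gave 0.0342 for DLL1, 0.0512 for JAG1 and 0.131 for GJB6. With 1 sample left out the change ran from −0.532 to 0.191 for ATOH1, −0.00728 to 0.369 for MYO7A, −0.0685 to 0.26 for CALB2, −0.228 to 0.224 for DLL1, −0.148 to 0.0415 for JAG1, −0.208 to 0.159 for CDKN1B, −0.653 to 0.182 for OTOL1, and GJB6 kept its sign. Depth limits low transcripts most in sample 1 of 120 h. The cause of these differences was not tested.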

Other observations

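Nuclear genes of the respiratory chain, which makes most of the ATP of a cell, were below 0 throughout in treated utricles without passing the test. The 2 members given next were picked out after their values were seen. COX7C, a subunit of cytochrome oxidase, had 141, 112 and 175 RPKM at 120 h, against 244, 283 and 203 RPKM at 72 h (log2 change −0.78 ± 0.23, SE; limma adjusted p = 0.159). UQCRC1, a core protein of the cytochrome bc1 complex, had 58.2, 60.5 and 58.4 RPKM at 120 h, against 85.6, 90.3 and 80.5 RPKM at 72 h (−0.53 ± 0.16; adjusted p = 0.162). The 2 times did not overlap in either gene, and samples of 120 h lay wholly below those of 72 h in 17 of the 48 genes tested, against 9.23% of all rows. In controls the median of the list was −0.11, with 35 of the 48 members below 0, against 7987 of all 13862 rows. Of the 48, 5 had an unadjusted limma p under 0.05 in controls, against 830 of all rows.

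LMNB1, the nuclear lamina gene among the falls outside the division lists, had 2.94 ± 0.78 RPKM at 120 h and 7.57 ± 2.28 RPKM at 72 h in treated utricles, and 3.698 ± 2.04 RPKM at 120 h and 3.18 ± 0.34 RPKM at 72 h in controls (SD, n = 3 each). The difference between the changes was −1.30 on the log2 scale (95% interval −2.06 to −0.54; limma adjusted p = 1), and it was picked out after its values were seen.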
